A study of Mus musculus with 121 samples.

Results

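The genes described are the oxidative phosphorylation genes of the mouse, 108 of the 25759 genes counted in both tissues. They were chosen by name, as the protein-coding genes of the complex I (Nduf), complex II (Sdh), complex III (Uqcr), complex IV (Cox4 to Cox8) and ATP synthase (Atp5) families and the mitochondrially encoded mRNAs, leaving out Cox7a1 and Cox8b. Of these, 75 are nuclear subunit genes, 13 are encoded by mitochondrial DNA and 12 are assembly factors that share the Nduf and Sdh prefixes. A further 7 are isoforms, all but Cox7a2l known for restricted tissue or oxygen settings, and 1, Atp5s, is a coupling factor. Grouped by gene name, 53 genes were counted with complex I, 8 with complex II, 9 with complex III, 19 with complex IV and 19 with ATP synthase. The complexes below are these groups by name, which need not match the complex that holds each protein (Ndufa4 is counted with complex I).

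Complexes I to IV of the inner mitochondrial membrane pass electrons from NADH and succinate to oxygen, and all but complex II pump protons, which ATP synthase uses to make ATP. Each complex apart from complex II is built from proteins of both genomes, so nuclear and mitochondrial transcripts are needed together. Hepatocytes are dense in mitochondria, while white adipocytes hold few around their lipid droplet and still use them for lipogenesis and fatty acid handling.

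The data are mRNA sequencing counts of 75 liver and 45 gonadal adipose libraries from C57BL/6 mice, 1 library per mouse and tissue. The genotypes WT (wild type), HET (heterozygous) and KO (knockout) refer to the gene the labels write as PEP, taken here to be Pepd, which encodes the dipeptidase prolidase. For 18 weeks from 8 weeks of age the mice ate chow, a high-fat diet (HFD), the diet labelled Alios or the diet labelled Control. The labels give the HFD as 45%. No promoter, Cre line or cell type restriction of the knockout is given in the labels, and no group carries a further allele or agent there. For WT, HET and KO in that order, liver came from 5, 8 and 5 chow-fed mice, 8, 11 and 9 HFD-fed mice, 5, 4 and 1 Control-fed mice, and 6, 5 and 8 Alios-fed mice. Adipose libraries came from 4, 8 and 5 chow-fed and 8, 11 and 9 HFD-fed mice. In all, 44 mice gave both tissues. Replicate numbers were given within each tissue, so the same number in liver and adipose tissue need not be the same mouse.

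Total counts ran from 42692 to 8854246 in liver, with 1 library (Alios KO 8) far below the next lowest of 1027087, and from 4236655 to 6699887 in adipose tissue. Pepd was lower in KO than WT by log2 fold changes of -4.86 and -4.85 in liver on chow and HFD and of -2.23 and -2.03 in adipose tissue (adjusted p at most 1.14e-05, edgeR). A single mouse labelled HET on HFD had KO-like Pepd, at 1.54 CPM (counts scaled to library size) in liver. RNA of another tissue stood out in adipose libraries Chow KO 1, HET 2 and WT 2 (8 epididymis markers summing to 9035, 10380 and 12505 CPM) and HFD WT 6 (hepatocyte markers), and muscle RNA in 4 liver libraries and in adipose HFD WT 2 (689 CPM of muscle markers). Adipose libraries carried their 8 adipocyte markers at 3532 to 28565 CPM, and liver libraries on chow and HFD their 8 hepatocyte markers at 59943 CPM or more.

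The promoters are shown for 3 genes that were lower on HFD than on chow in HET adipose tissue: Ndufb10 and Ndufb7, accessory subunits of the complex I membrane arm with the smallest adjusted p values, and Cox6a1, a nuclear subunit of cytochrome c oxidase whose window held both motifs searched. Each is the 250 bases before the start in RefSeq's GRCm38.p6, read 5′ to 3′ on the gene's strand: chr17:24724424-24724673 (minus), chr8:83566508-83566757 (plus) and chr5:115348959-115349208 (minus). Capitals mark GCGCATGCG, a core of the NRF1 site, and CCGGAAG, a core bound by ETS factors such as GABP, on either strand (an ETS match on the opposite strand reads CTTCCGG, and the NRF1 core overlaps itself on both strands as 1 run).
Ndufb10: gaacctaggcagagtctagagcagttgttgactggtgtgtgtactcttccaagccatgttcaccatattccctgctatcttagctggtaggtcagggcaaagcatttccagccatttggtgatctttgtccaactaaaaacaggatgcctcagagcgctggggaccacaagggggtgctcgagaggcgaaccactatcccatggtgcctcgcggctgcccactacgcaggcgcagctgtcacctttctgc
Ndufb7: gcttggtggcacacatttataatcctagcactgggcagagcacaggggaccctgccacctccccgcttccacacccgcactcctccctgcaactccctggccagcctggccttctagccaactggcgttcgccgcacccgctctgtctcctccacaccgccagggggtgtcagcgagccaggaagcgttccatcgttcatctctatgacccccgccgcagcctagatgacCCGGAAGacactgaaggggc
Cox6a1: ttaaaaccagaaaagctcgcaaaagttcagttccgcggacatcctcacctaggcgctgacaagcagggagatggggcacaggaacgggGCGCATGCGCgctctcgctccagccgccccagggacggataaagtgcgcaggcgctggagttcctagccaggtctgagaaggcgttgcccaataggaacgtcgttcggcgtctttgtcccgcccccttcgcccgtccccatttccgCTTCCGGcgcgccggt
Of the 108 genes, 76 matched a promoter in the table. The NRF1 core stood in 7 of these genes (9.21%), against 1.64% of all 27025 genes with a promoter there, and the ETS core in 16 (21.1%), against 7.83%, while 55 held neither. These are matches of letters in a short window and say nothing on binding. The diet changes of the 3 genes shown are given below, and whether diet changes go with the motifs was not tested.

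In CPM per kilobase of exon, mitochondrially encoded mRNAs stood far above nuclear ones, with medians of 8860 against 67.3 in liver and 1470 against 40.3 in adipose tissue. mt-Cytb, the cytochrome b of complex III, was the highest mitochondrial mRNA at 16300 in liver and 4330 in adipose tissue, and mt-Nd5, a proton-pumping complex I subunit, the lowest of the 7 well measured ones at 3100 and 811. Among nuclear subunits the highest were Atp5a1, the alpha subunit of ATP synthase, in liver at 447, and Cox6b1 of complex IV in adipose tissue at 300. Complex medians per kilobase in liver were 57.7 for complex I, 157 for complex II, 130 for complex III, 159 for complex IV and 64.2 for ATP synthase. In adipose tissue they were 33.4, 65.9, 57.4, 68.3 and 48.0 in the same order. Assembly factors, which help to build complexes I and II and are not part of the finished enzyme, had medians of 6.55 and 5.30. The scaling factors behind these levels ran from 0.713 to 0.976 in liver and from 1.245 to 1.676 in adipose tissue. Differences between the tissues in these levels therefore depend on the scaling. As mean shares of all counts, nuclear subunits took 0.993% in liver and 1.18% in adipose tissue of HET mice on chow. On HFD the shares were 1.02% and 0.909%.

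Some genes had too few counts to test: 13 of 108 in liver and 11 in adipose tissue did not pass the filter on low counts, leaving 95 and 97. Cox4i1, Ndufa13, Cox6a2 and mt-Atp8 were listed at 0 in every library of both tissues. For Cox4i1, the common isoform of a large complex IV subunit, and Ndufa13, exons overlap a gene on the other strand over 9.94% and 30.0% of their length, and mt-Atp8 overlaps mt-Atp6. The first 2 overlaps cover only part of the exons, and whether any overlap bears on the zeros was not tested. mt-Co2 was counted 1 time in all liver libraries and 3 times in all adipose libraries, and mt-Co3 39 and 13 times. Atp5l and Cox7c had the lowest levels per kilobase among nuclear subunits of their complexes (0.471 and 2.36 in adipose tissue). How reads that match several places, such as processed pseudogenes of these families, were counted is not given in the sources used here, so the levels of these genes are uncertain.

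Among the diet and genotype comparisons, most genes were called in gonadal adipose tissue of HET mice. On HFD, 81 of 97 tested oxidative phosphorylation genes were lower than on chow and 0 higher, at an adjusted p under 0.05 (edgeR's quasi-likelihood test, Benjamini-Hochberg over all genes). Of all 14536 genes tested, 18.8% were called lower and 15.6% higher. The median log2 fold change was -0.47 over these genes and -0.04 over all genes. The genes called lower comprised 34 of 36 complex I subunits, 4 of 4 of complex II, 8 of 8 of complex III, 8 of 9 of complex IV, 13 of 16 of ATP synthase, 9 of 12 assembly factors, the coupling factor Atp5s and 4 of 7 mitochondrially encoded mRNAs. None of the 4 tested isoforms was called. Median log2 fold changes were -0.52, -0.44, -0.49, -0.46 and -0.42 for complexes I to V, -0.34 for assembly factors and -0.60 for mitochondrial mRNAs. The count was 83 without the libraries that held RNA of another tissue and 81 without the HET mouse with KO-like Pepd.

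The mean log2 CPM of 73 nuclear subunits, taken per mouse, was 5.99, 6.12 and 6.40 (lowest, median and highest) in HET mice on chow and 5.48, 5.69 and 5.95 on HFD. Every HET mouse on HFD lay below every HET mouse on chow. WT mice on chow had 5.90, 5.96 and 6.18, and on HFD 5.53, 5.76 and 6.16, and here the diets overlapped. In KO mice on chow the 5 values were 5.48, 6.29, 6.22, 5.45 and 5.55, and on HFD they ran from 5.63 to 6.29 around a median of 5.70. In KO mice on chow, KO 2 and 3 lay inside the HET chow range and KO 1, 4 and 5 below every KO mouse on HFD. Their SD, 0.42, compares with 0.14 in HET and 0.13 in WT mice on chow.

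**Figure D1:**
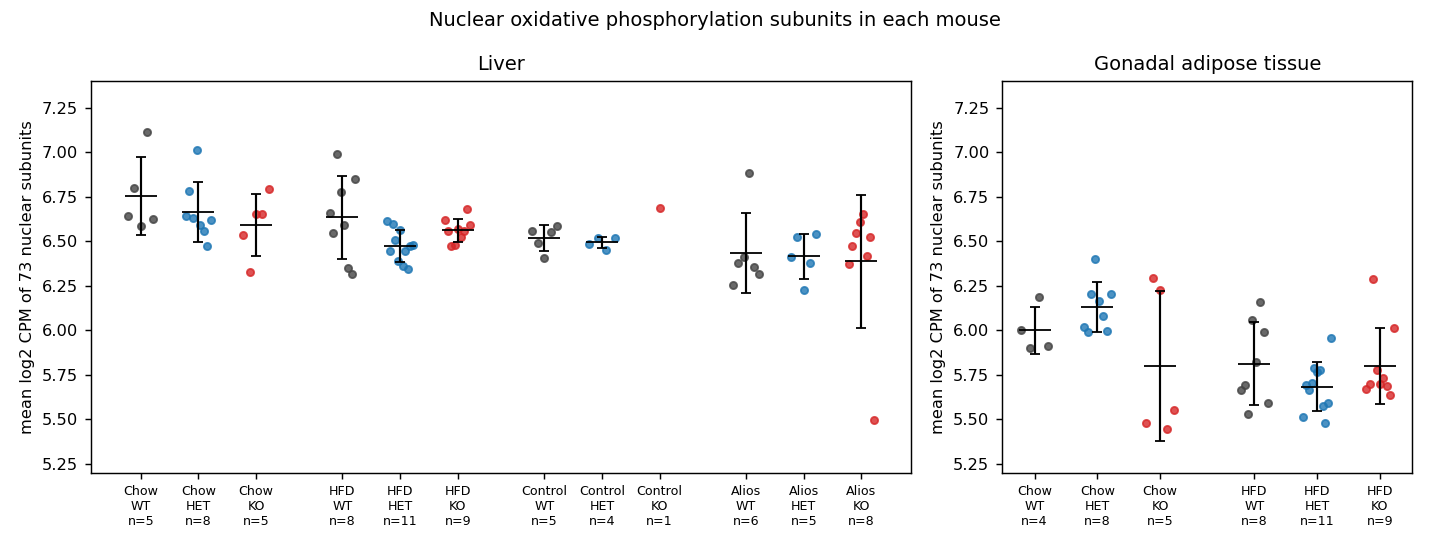
Mean log2 CPM of 73 nuclear subunit genes (vertical axis) in each mouse (points), by tissue, diet and genotype (horizontal axis); black marks and bars are the group mean and SD, not drawn for the group of 1. In adipose tissue all 8 HET mice on chow lie above all 11 on HFD, and KO mice on chow split between 5.45 and 6.29. In liver the group means lie between 6.39 and 6.75, and the height of liver against adipose tissue depends on the scaling.

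Within complex I, Ndufb10 measured 82.7, 90.8 and 133.0 CPM (lowest, median, highest) in HET adipose tissue on chow and 51.0, 59.8 and 82.2 on HFD. The ranges did not overlap, and the log2 fold change was -0.70 ± 0.12 (SE, n = 11 and 8, edgeR adjusted p = 5.43e-05). Ndufb7 measured 62.8, 82.3 and 98.9 CPM on chow and 39.9, 51.2 and 67.7 on HFD, with overlap of the highest HFD and lowest chow mice and a log2 fold change of -0.68 ± 0.12 (edgeR adjusted p = 5.86e-05). Ndufb8, another membrane-arm subunit and a common marker protein of complex I, had the lowest log2 fold change of the genes called, -0.88 ± 0.17 (edgeR adjusted p = 0.000179), from 61.1 ± 12.8 to 33.5 ± 5.49 CPM (mean ± SD). The core subunits were lower too. Ndufv1, which binds the flavin that takes electrons from NADH, went from 161 ± 24.4 to 108 ± 16.3 CPM (log2 fold change -0.59, edgeR adjusted p = 0.00187). Ndufb3 and Ndufb4 were the complex I subunits not called, at -0.33 and -0.18.

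In complex II, Sdha, the flavoprotein that oxidizes succinate in the citric acid cycle, measured 315.0, 425 and 465.8 CPM in HET mice on chow and 242, 305 and 363 on HFD. Most HFD mice lay below the lowest chow mouse, with some overlap, at a log2 fold change of -0.48 ± 0.13 (edgeR adjusted p = 0.00428). Sdhb, its iron-sulfur partner, changed by -0.47 ± 0.13 (0.00645). In complex III, Uqcrc2, a core protein, measured 126, 154 and 177 CPM on chow and 90.2, 112 and 125 on HFD without overlap (-0.50 ± 0.13, edgeR adjusted p = 0.00432), and Uqcrq, a small subunit, changed by -0.76 ± 0.17 (0.000776). In complex IV, Cox8a went from 176 ± 41.4 to 107 ± 19.8 CPM (-0.73 ± 0.15, edgeR adjusted p = 0.000278). Cox6a1 went from 186 ± 33.9 to 127 ± 20.1 (-0.56 ± 0.13, edgeR adjusted p = 0.00154). Cox7c, at 1.60 to 2.81 CPM on chow, was the complex IV subunit not called (0.12).

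Atp5b, the catalytic beta subunit of ATP synthase, measured 973, 1368 and 1622 CPM in HET mice on chow and 760, 948 and 1200.0 on HFD. The ranges overlapped, and the log2 fold change was -0.50 ± 0.17 (edgeR adjusted p = 0.0203). Atp5j2, a subunit of the membrane part, changed by -0.53 ± 0.10 (0.000114). Atp5g1 and Atp5g2, which with Atp5g3 encode the same c-ring protein, and Atp5l were not called (0.06, -0.11 and 0.04). Of the mitochondrial mRNAs, mt-Cytb measured 5032, 6150 and 7485 CPM on chow and 2947, 3774 and 5403 on HFD, overlapping, at -0.71 ± 0.24 (edgeR adjusted p = 0.0185). mt-Nd4, mt-Nd5 and mt-Nd6 were called as well (-0.64, -0.60 and -0.67), while mt-Nd1, mt-Nd2 and mt-Co1 measured -0.47, -0.37 and -0.48 with adjusted p of 0.0519, 0.174 and 0.0755. Among assembly factors Ndufaf7, a complex I assembly factor, fell by 0.43 on the log2 scale (SE 0.0824, edgeR adjusted p = 0.000154), and Ndufaf5, Ndufaf6 and Sdhaf3 were not called.

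In WT adipose tissue 2 of 97 genes were called lower on HFD and 0 higher, where 2.97% of all genes were lower and 1.60% higher. Ndufb7 measured 119, 62.8, 93.1 and 70.3 CPM in the 4 chow mice and 40.3 to 74.6 (median 56.6) on HFD, overlapping, with a log2 fold change of -0.67 (edgeR adjusted p = 0.0215). Ndufaf3, an early complex I assembly factor, measured 19.0, 18.5, 18.7 and 17.5 CPM on chow and 10.4 to 16.3 on HFD without overlap (-0.57, 0.0304). Both calls were lost without WT replicate 2 on chow, which held epididymis RNA, and the median over the genes was -0.20. The difference of the diet changes between HET and WT was itself tested: 0 genes were called by edgeR and 0 by DESeq2, 9 had an unadjusted p under 0.05, and the median difference was -0.27. Of all genes 0% were called, so the HET and WT responses are not shown to differ.

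In KO adipose tissue 3 genes were called higher on HFD and 11 lower, against 15.0% and 20.6% of all genes, with a median of -0.05. Those higher were Atp5a1 (log2 fold change 0.35) and the assembly factors Sdhaf3 (0.71, edgeR adjusted p = 0.000954) and Ndufaf4 (0.32). Those lower included Cox7c (-0.74), Ndufa5 (-0.54), Ndufa3 (-0.47), Ndufa2 (-0.44), Uqcrh (-0.36) and Atp5h (-0.33), subunits of complexes I, III, IV and V, and the assembly factors Ndufaf8 (-0.67) and Sdhaf1 (-0.56). Atp5a1 measured 441, 720, 856, 330 and 411 CPM in the 5 KO mice on chow and 610.0, 688 and 943 (lowest, median, highest) on HFD, so that KO 1, 4 and 5 lay below every HFD mouse. Leaving out KO replicate 2 turned the split to 8 higher and 7 lower, and leaving out KO replicate 3 to 12 higher and 11 lower.

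The diet change differed between KO and HET mice in 32 genes, 31 of them higher in KO minus HET and 1, Cox7c, lower, in a test added after the data were seen. Of all genes 12.2% were higher and 14.3% lower. The 31 were 12 complex I, 3 complex II, 3 complex III, 1 complex IV and 6 ATP synthase subunits, 4 assembly factors and 2 mitochondrial mRNAs. Ndufs1, the largest iron-sulfur core subunit of complex I, had a difference of 0.71 ± 0.19 (edgeR adjusted p = 0.00656), Ndufb6 0.86 ± 0.21 (0.00289), Sdha 0.66 ± 0.21 (0.0165) and Atp5b 0.89 ± 0.27 (0.0141). Atp5b in KO mice on chow measured 600, 1358, 1553, 331 and 563 CPM, with KO 2 and 3 inside the HET chow range and KO 1, 4 and 5 below all HET mice. The count depended on single KO chow libraries: it was 62 and 56 without KO 2 or KO 3, and 19, 8 and 13 without KO 1, 4 or 5.

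**Figure D2:**
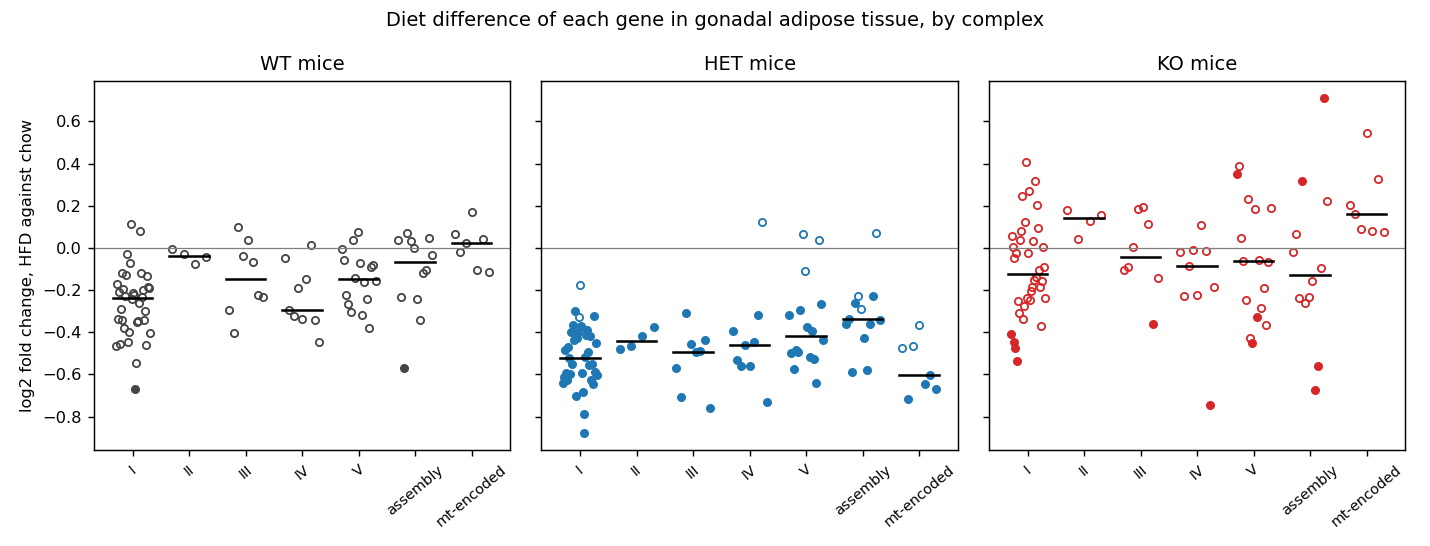
Log2 fold change of HFD against chow (vertical axis) for each tested gene in gonadal adipose tissue, by complex or class (horizontal axis) and genotype (panels); filled points passed adjusted p under 0.05 in edgeR and black lines are class medians. In HET mice the class medians run from -0.60 to -0.34 and 81 genes including Atp5s (not drawn, like the isoforms) were called lower, against 2 in WT and 11 in KO mice. Of all genes 18.8%, 2.97% and 20.6% were called lower in HET, WT and KO mice. The groups held 8, 4 and 5 mice on chow and 11, 8 and 9 on HFD in that order. The difference of diet changes between HET and WT had 0 genes called.

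On chow, KO adipose tissue had 1 gene called lower than WT and 0 higher, where 6.14% and 8.85% of all genes were called. It was Cox6b2, the testis isoform of a complex IV subunit, at 3.48, 11.2, 3.81 and 1.85 CPM in WT mice 2 to 5 and 1.81, 1.38, 3.04, 2.18 and 1.44 in KO mice, with overlapping ranges (-1.37, edgeR adjusted p = 0.0188). Cox6b2 was highest in WT 3, where the 6 testis and sperm markers summed to 168 CPM. These markers summed to 176 CPM in WT 2, whose Cox6b2 was 3.48 CPM. Their part in the result was not tested. Without WT 3 the log2 fold change was -0.64 (adjusted p = 0.29). Against HET mice on chow, a comparison added after the data were seen, KO mice had 22 genes lower and 2 higher (14.4% and 18.0% of all genes), among them Ndufb6 (-0.67), Ndufs1 (-0.51), Atp5b (-0.59) and Uqcrc2 (-0.45), with Cox7c (0.68) higher. That count was 56 without KO 2, 48 without KO 3, 10 without KO 1, 5 without KO 5 and 1 without KO 4, and 0 when the 2 groups were fitted alone. In the other adipose comparisons of genotypes edgeR called 0 of 97 genes: KO against WT, HET against WT and KO against HET on HFD (1, 7 and 9 at an unadjusted p under 0.05), HET against WT on chow (1), and the KO change on HFD minus that on chow (2). DESeq2 called 0 in each. Of all genes, 0.0344%, 0.00688% and 0.0138% were called in either direction in the HFD comparisons, 0% in HET against WT on chow and 6.33% in the KO difference between diets.

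Adipocyte and immune markers moved with these values. Summed over 8 markers, adipocyte genes stood at 9649 to 28560 CPM in HET mice on chow and 6025 to 16710 on HFD, and 5 of 8 were called lower on HFD, while 10 of 12 tested macrophage markers and 5 of 8 lymphocyte markers were called higher. Macrophage markers summed to 752 to 2938 CPM on chow and 3761 to 9530 on HFD. Of all genes 18.8% were called lower and 15.6% higher. Also lower were 6 of 6 testis and sperm, 2 of 4 mesothelial and 1 of 8 hepatocyte markers, with 0 higher. Higher were 3 of 8 epididymis and 2 of 5 fibroblast markers, with 0 lower. Of 6 endothelial markers 1 was higher and 2 lower. Testis and sperm markers summed to at most 205.8 CPM on chow and 11.96 on HFD. Testis markers were not used to pick the libraries left out for RNA of another tissue. In the KO chow mice 1 to 5 the adipocyte sums were 5733, 22243, 20019, 3532 and 7591 CPM, low in the same 3 libraries whose subunit means were low, and the lymphocyte sums were 319, 181, 25.9, 1151 and 347.7, against 49.9 at most in HET mice on chow. The part of cell composition in the results was not tested. In bulk tissue, fewer cells of a type and less RNA per cell cannot be told apart.

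**Figure D3:**
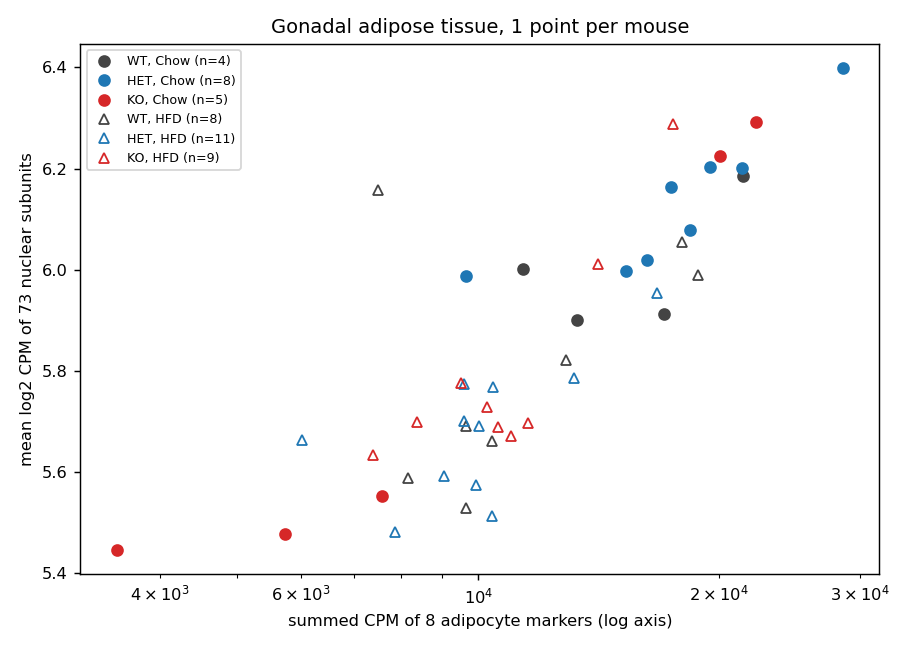
Mean log2 CPM of 73 nuclear subunits (vertical axis) against the summed CPM of 8 adipocyte markers (horizontal, log axis) in each of 45 adipose libraries, filled circles for chow and open triangles for HFD, coloured by genotype. Libraries low in both include KO chow mice 1, 4 and 5 (3532 to 7591 CPM; 5.45 to 5.55), and libraries high in both include HET chow mouse 4 (28565 CPM; 6.40); both axes come from the same libraries.

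Other mitochondrial gene lists were counted in the same HET adipose comparison, where 18.8% of all genes were called lower and 15.6% higher. Lower on HFD were 13 of 17 genes of a citric acid cycle list that includes pyruvate dehydrogenase genes (median log2 fold change -0.44). Also lower were 59 of 75 mitochondrial ribosomal protein genes (-0.35) and 14 of 22 further assembly factors (-0.35). Of other respiratory chain genes 12 of 20 were lower (-0.30), with 0 higher in each list. Examples are Pdha1, the E1 alpha subunit of pyruvate dehydrogenase (-0.71), Gpd2, the mitochondrial glycerol-3-phosphate dehydrogenase (-1.08), and Slc25a4, an ADP/ATP carrier (-0.64). Of 22 regulators of mitochondrial biogenesis and mitochondrial DNA, 6 were lower and 1, Gabpa, an ETS-family subunit of GABP, was higher (0.25, edgeR adjusted p = 0.000664), and Ppargc1b, a coactivator of mitochondrial genes, was lower (-0.66, 0.00206). Ucp2, an uncoupling protein relative, was higher (1.503). In its list of 11 uncoupling and brown adipocyte genes 1 was called higher and 1 lower, and the median was -0.56. Cytosolic ribosomal protein genes had 5 of 78 lower and 2 higher.

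In liver, edgeR called no oxidative phosphorylation gene in 13 of 15 comparisons. HET mice had 11 of 95 genes lower on HFD than on chow and 0 higher, against 7.26% and 6.97% of all 11064 genes, with medians of -0.21 over these genes. They were 4 complex I, 1 complex II, 1 complex III and 3 ATP synthase subunits, 1 assembly factor (Ndufaf2) and mt-Nd4. Atp5c1, the gamma subunit that turns within ATP synthase, measured 351, 406 and 452 CPM on chow and 282, 334 and 375.9 on HFD, overlapping, with a log2 fold change of -0.28 ± 0.077 (edgeR adjusted p = 0.0101). Sdhb measured 269.8, 311.7 and 387.0 CPM on chow and 203, 255 and 292 on HFD, overlapping (-0.32 ± 0.091, 0.0148). The count was 0 at adjusted p under 0.01 and 20 when HET groups were fitted alone. In the same comparison 4 of 5 fibroblast, 2 of 12 macrophage and 2 of 6 endothelial markers were higher on HFD and 0 lower, and 2 of 8 hepatocyte markers were lower and 0 higher. Of 6 skeletal muscle markers tested 2 were lower, and their sums ran to 2116 CPM in chow and 1100 CPM in HFD mice. Without the libraries with muscle RNA 10 genes were called, and the part of the other markers in the result was not tested.

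In KO liver 5 genes were higher on HFD than on chow and 1 lower, against 4.51% and 6.19% of all genes. The KO chow mice are numbered here by their liver libraries. Liver KO 2 and 5 are the mice of adipose KO 5 and 4, and liver KO 3 and 4 those of adipose KO 2 and 3. Liver KO 1 gave no adipose library. Sdha measured 804, 527.9, 464, 843 and 429 CPM in the 5 chow mice and 687, 943 and 1028 (lowest, median, highest) on HFD, so that chow mice 2, 3 and 5 lay below all HFD mice and 1 and 4 inside their range (0.53 ± 0.13, edgeR adjusted p = 0.00975). Ndufs1 measured 176, 120, 126, 203 and 99.6 CPM on chow and 169 to 248 on HFD (0.51 ± 0.13, 0.00836). Uqcrc2 (0.42), Atp5a1 (0.30) and mt-Nd5 (0.53) were the others higher. Ndufs7, an iron-sulfur core subunit of complex I, was lower (-0.64, edgeR adjusted p = 0.0424).
The same chow mice 2, 3 and 5 had 8 hepatocyte markers summing to 59943, 97192 and 73465 CPM, against 150740 and 157540 in mice 1 and 4, and macrophage markers at 2711, 1777 and 2083 against 612 and 794. Their part in the result was not tested. Without KO chow mouse 5 the count of called genes was 0, without mouse 3 it was 1, without mouse 2 it was 2, and without mouse 4 it was 10.

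The liver comparisons with 0 calls had 0 to 27 genes at an unadjusted p under 0.05. The 27 were in HET against WT on HFD, led by Ndufs5, a complex I subunit (-0.43, edgeR adjusted p = 0.552), and 0.00904% of all genes were called there in either direction. KO against WT on chow had 12, led by Ndufs1 (-0.40, adjusted p = 0.0962), and the KO minus HET difference of diet changes had 16, led by Atp5f1, the b subunit of the ATP synthase stalk (0.34, 0.0769), with 1 gene called by DESeq2. In these, 3.40% and 2.80% of all genes were called. HET against WT on chow had 0 genes at an unadjusted p under 0.05, KO against WT on HFD 4, WT on HFD against chow 4, the KO change on HFD minus chow 6 and the HET minus WT difference of diet changes 0. Their shares of all genes called were 0%, 1.72%, 1.87%, 0.145% and 0%. DESeq2 called 0 in the other 12. On the Alios and Control diets the counts at an unadjusted p under 0.05 were 5 for Alios KO against WT, 1 for Alios HET against WT, 0 for Control HET against WT, 7 for WT Alios against Control and 5 for HET Alios against Control, with 0.224%, 0.00862%, 0.00862%, 0% and 0.190% of all genes called in the same order. The mean log2 CPM of nuclear subunits was 6.43 ± 0.23 in WT, 6.41 ± 0.13 in HET and 6.39 ± 0.37 in KO mice on Alios (SD, n = 6, 5 and 8), the last including the library of 42692 counts at 5.50.

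The share of counts on mitochondrially encoded mRNAs in adipose tissue was 2.70 ± 0.58% in HET mice on chow and 1.94 ± 0.22% on HFD (SD, n = 8 and 11). WT mice had 2.33 ± 0.98% and 2.33 ± 0.63%. KO mice on chow had 2.08, 3.63, 2.34, 1.81 and 0.82%, and on HFD 1.41 to 4.33%. In liver the shares were larger, from 4.70 ± 1.08% in KO mice on chow to 6.79% in the single KO mouse on Control. These shares rest on the well measured mRNAs, since the others were barely counted.

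**Figure D4:**
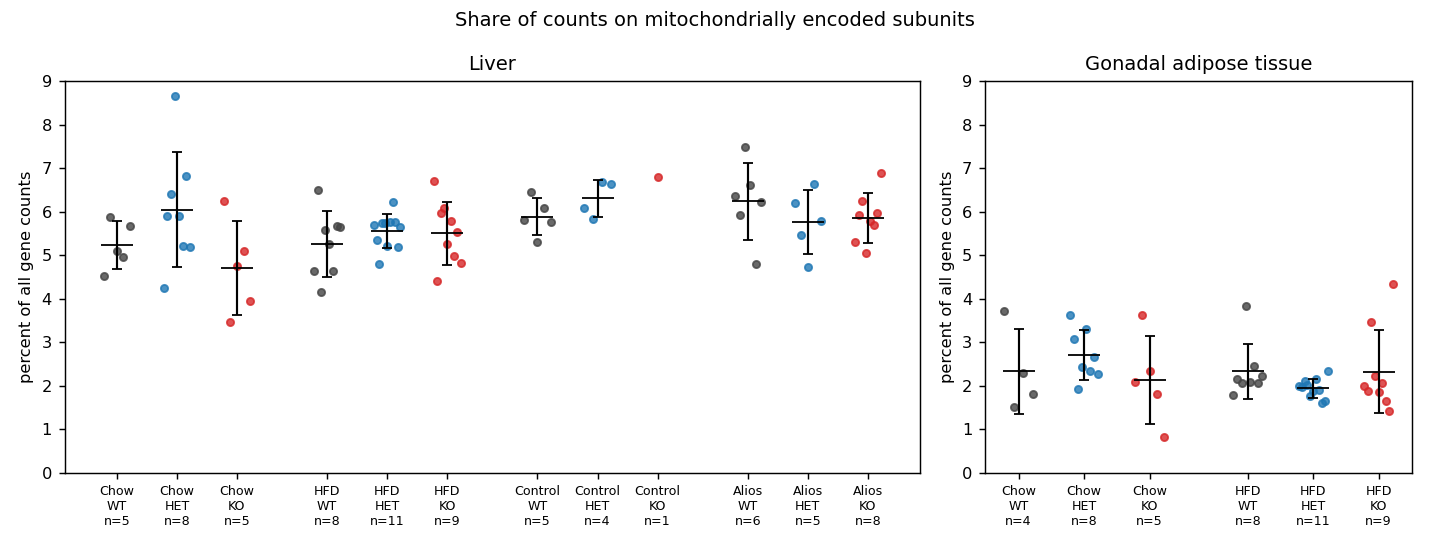
Percent of all gene counts on mitochondrially encoded subunits (vertical axis) in each mouse (points), by diet and genotype, with group mean and SD in black. Liver libraries lie above nearly all adipose libraries; in adipose tissue the HET mean is 2.70% on chow and 1.94% on HFD.

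Liver and adipose tissue of the same mice were compared with the mouse as a block. On HFD, 85 of 98 genes were higher in liver and 5 lower, and on chow 73 and 11, where 38.4% and 51.3% of all genes were higher and lower on HFD and 36.0% and 50.2% on chow. These counts depend on the scaling: with trimmed-mean (TMM) factors the median of all genes was -0.22 on HFD, and with library totals, an alternative added after the data were seen, it was -1.05. With totals 45 genes were higher and 38 lower on HFD, and 26 and 51 on chow. Under both scalings all 8 mitochondrial mRNAs tested were higher in liver on both diets (HFD medians 2.19 and 1.35), as were 4 of 4 complex II genes on HFD (1.39 and 0.56).

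mt-Cytb measured 18810 ± 2507 CPM in liver and 4644 ± 1873 in adipose tissue on HFD and was higher in liver in 28 of 28 mice (log2 fold change 2.12 ± 0.13, edgeR adjusted p = 3.31e-20). Sdhd, a membrane anchor of complex II, measured 310 ± 31.6 and 112 ± 17.4 CPM and was higher in liver in 28 of 28 mice (1.504 ± 0.051, 2.78e-30). Uqcrfs1, the Rieske iron-sulfur protein of complex III, was at 1.62 (0.78 with totals), and the complex I assembly factor Ndufaf6 at 1.91. Ndufb3 of complex I was the nuclear subunit called lower in liver, with more in liver in 2 of 28 mice (-0.47, edgeR adjusted p = 1.08e-07).
Lower in liver under both scalings were 3 isoforms: Cox4i2, known for its induction at low oxygen (0.19 CPM in liver, 5.60 in adipose tissue), Ndufa4l2, also known as a low-oxygen gene (1.04 and 11.8), and Cox6b2 (0.068 and 2.12). None of the 28 HFD or 16 chow mice had more of any of the 3 in liver. Cox4i2 and Cox6b2 had a median of 0 in each liver HFD group, so their folds are not given.

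**Figure D5:**
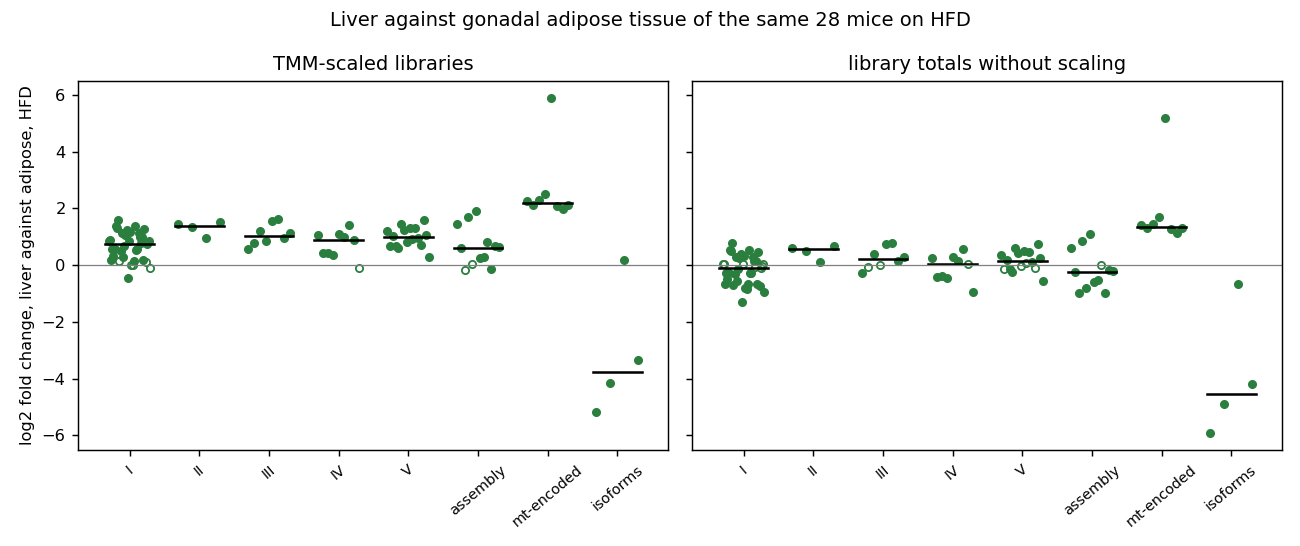
Log2 fold change of liver against gonadal adipose tissue in the 28 mice on HFD (vertical axis) for each gene, by complex or class (horizontal axis), with TMM scaling (left) and library totals (right); filled points passed adjusted p under 0.05 in edgeR and black lines are class medians. Nuclear subunits shift from a median of 0.87 to 0.04 between scalings, while mitochondrial mRNAs stay above 0 and 3 isoforms far below.

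The signed liver minus adipose log2 difference was higher on HFD than on chow in 21 of 98 genes and lower in 0, against 10.3% and 9.80% of all genes, and 43 genes were called with library totals. The 21 included Ndufb8 (difference 0.60 ± 0.12, edgeR adjusted p = 0.000282), Cox8a (0.49), Ndufv1 (0.42) and Sdha (0.38). Ndufb8 measured 39.8 ± 5.62 CPM in liver and 56.2 ± 16.4 in adipose tissue on chow, and 39.1 ± 5.90 and 36.4 ± 8.20 on HFD, so that for this gene the gap between the tissues was smaller on HFD. These mice are those of the diet comparisons above, so the count is not separate evidence.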

How the data were processed

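The authors deposited raw counts per gene, 1 table per tissue, made with STAR 2.5.1b, featureCounts 1.5 and GRCm38.p5, per the submitters' processing notes. Not given in the sources used here are the annotation, the strand setting and the handling of multiply matching reads. RNA had an integrity number above 7 and stranded mRNA libraries were made, per the labels' protocols. Each replicate is a separate mouse, and 1 column without a matching label was not used.

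Genes were named from GENCODE by Ensembl ID. In R 4.3.3, edgeR 4.0.16 (TMM factors, filterByExpr with a minimum count of 10, quasi-likelihood F test, group means) was fitted per tissue and diet pair over all genes, with Benjamini-Hochberg adjustment and a threshold of 0.05. Levels are CPM with TMM factors over both tissues. Means use log2 CPM with a prior count of 2 and carry no test. DESeq2 1.42.0, other scalings and filters, a replicate block, left-out libraries and groups fitted alone were alternatives. The fit was tested on simulated data. No pair of 392 replicate pairs agreed within sampling noise. Named genes are anchor subunits and the called genes of largest change or smallest adjusted p, of which 1 is not reported here. The members and lists were chosen with earlier results of these data known.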

Additional observations from a re-analysis of the deposited data

Results flagged for a closer look

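Per-mouse means were screened for mice far from the rest of their group, and 14 of 135 such checks stood out. A single check stands out by chance about 1 time in 20. The checks share libraries and genes, and several below come from the same library. They are therefore not independent, and the 14 cannot be set against that rate. In liver, Alios WT 4 was high in mean log2 CPM for complex I (6.50), complex III (7.41), complex V (7.18) and all nuclear subunits (6.88). Alios KO 8, the library of 42692 counts, was low for complex I (4.77), complex IV (5.12), complex V (5.84), all nuclear subunits (5.50) and assembly factors (1.24). Chow HET 4 was high for complex III (7.58), and Alios HET 3 was low for mitochondrial mRNAs (12.6). In adipose tissue HFD KO 3 was high for complex IV (6.20), and HFD WT 4 was high for mitochondrial mRNAs, at a mean log2 CPM of 11.7 and a share of counts of 3.82%.

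Effects differed between groups, by a test of the difference, in 32 genes for the diet change in adipose tissue of KO against HET mice and in 21 genes for the tissue difference on HFD against chow. Of all genes, 12.2% and 14.3% were called higher and lower in the first and 10.3% and 9.80% in the second. The 32 ran from 8 to 62 on leaving out 1 mouse, and the 21 was 43 with library totals.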

How the results depend on the processing

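Counts of called genes are given beside the main count. In HET liver (HFD against chow, 11) they were 7 with no filter, 2 with the replicate block, 20 with the groups fitted alone and 0 at adjusted p under 0.01. In KO liver (6) they were 3 with the block, 3 with groups alone (1 higher and 2 lower), 2 at 0.01 and 0 to 10 leaving out 1 mouse. The liver KO minus HET difference (0) was 1 with DESeq2 and 0 to 6 leaving out 1 mouse, KO against WT on chow (0) was 0 to 4 and the KO change on HFD minus chow (0) was 0 to 1. In adipose tissue, KO against WT on chow (1) was 0 with the block, with groups alone and at 0.01, and 0 to 19 leaving out 1 mouse. WT on HFD against chow (2) was 0 with the block, without other-tissue libraries, with groups alone and at 0.01, 4 with DESeq2, and 0 to 6 leaving out 1 mouse. KO on HFD against chow (14) was 23 without other-tissue libraries, 6 at 0.01 and 12 to 23 leaving out 1 mouse (8 higher and 7 lower, 15 in all, without KO 2). The KO change on HFD minus chow (0) was 0 to 3. The KO minus HET difference (32) was 21 without other-tissue libraries, 6 at 0.01 and 8 to 62 leaving out 1 mouse. KO against HET on chow (24) was 12 without other-tissue libraries, 0 with groups alone, 4 at 0.01 and 1 to 56 leaving out 1 mouse. HET on HFD against chow in adipose tissue (81) ran from 66 to 88. With library totals the tissue count on chow was 77 (26 higher and 51 lower) and the tissue-by-diet count 43. Reversed with totals were, on chow, Ndufv1 (-0.52), Ndufs1 (-0.062), Ndufa9 (-0.001), Uqcrc1 (-0.12) and Atp5b (-0.43), and on HFD, Ndufv1 (-0.035), Ndufb8 (-0.68), Cox6a1 (-0.40) and Atp5b (-0.15). Beyond these constructions the cause was not tested. Same-numbered mice did not deviate together in every pair in any of 19 comparisons (pair correlations -0.78 to 0.89), so the numbers are not taken as pairing, and the block changed no other count by over 1.5 times. Leaving out adipose HFD WT 2, with muscle RNA, gave 3 for WT on HFD against chow (2), 31 for the KO minus HET difference (32), 80 for HET on HFD against chow (81) and 16 for the tissue-by-diet count (21). Without it Uqcrfs1 (0.61, adjusted p = 0.053) in the KO minus HET difference and, between the tissues, Ndufb8 on HFD (0.14, 0.068) and Cox6a1 in the difference between diets (0.34, 0.066) were no longer called. Leaving out this and the other libraries with other-tissue RNA, library totals, and the KO minus HET and KO against HET comparisons were chosen after seeing the data. The smallest liver library limits only the Alios values, and mRNAs with few counts could not be tested.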

Other observations

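Cytosolic ribosomal protein genes moved in the KO adipose comparison. On HFD against chow 61 of 78 tested were lower and 0 higher, against 20.6% and 15.0% of all genes (median log2 fold change -0.58), among them Rpl37a (-0.86, edgeR adjusted p = 1.74e-05) and Rps20 (-0.84, 2.56e-05). Their diet change was lower in KO than in HET mice in 48 of 78 genes and higher in 0, against 14.3% and 12.2% of all genes. The citric acid cycle list, which includes pyruvate dehydrogenase genes, had 5 of 17 higher and 0 lower on HFD in KO mice. Idh3a, a subunit of the NAD-dependent isocitrate dehydrogenase, was at 1.07 and Dlat, the E2 subunit of pyruvate dehydrogenase, at 0.82. The KO minus HET difference was higher in 13 of 17 and lower in 0. In liver, cytosolic ribosomal protein genes were lower on HFD in 21 of 69 tested in HET and 22 of 69 in KO mice, against 7.26% and 6.19% of all genes. The KO adipose values rest on the same 5 adipose chow libraries whose lymphocyte and macrophage markers varied. The KO liver values rest on 5 liver chow libraries, whose hepatocyte and macrophage markers varied.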
